A study of Homo sapiens with 24 samples.

Results

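The genes described here are 10 transcripts linked to hypoxia-inducible factor (HIF): HIF1A, CA9, CA12, EGLN1, EGLN3, VEGFA, ADM, ANKRD37, NDRG1 and SPAG4. They are 10 of the 24053 gene identifiers in the expression table, were found by gene symbol, and all passed the minimum of 1 TPM on average that was set for testing. They were put together after earlier results of these data had been seen, in which CA9, SPAG4 and EGLN3 stood out with Nrf2 siRNA or the double siRNA. Their values in every comparison that uses the Nrf2-siRNA or double-siRNA arm, the interaction included, are therefore a description with no p. A p is given for them with Pink1 siRNA against scramble, which shares the scramble samples with the comparisons that led to the choice.

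RNA was sequenced from ARPE-19, an established human line of retinal pigment epithelium (RPE), the pigmented cell layer that supports the photoreceptors. Cells received Pink1 siRNA, Nrf2 siRNA, both together (Nrf2-Pink1 siRNA, called the double siRNA below) or scramble siRNA, with 3 biological replicates a group and 2 technical replicates of each, so 24 libraries gave 12 biological samples. Some labels call the siRNA groups knockouts, although the study design names siRNA, which lowers a message and does not delete a gene. All groups share 1 cell line in culture, and siRNA sequences, doses and times after transfection were not found in the labels. A scratch wound is described in the culture protocol, without a word on whether it was made in the cells taken for RNA.

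HIF is a transcription factor made of an oxygen-regulated alpha subunit, such as the product of HIF1A, and the constant partner ARNT. When oxygen is present, prolyl hydroxylases of the EGLN family mark the alpha subunit, VHL binds it and it is degraded, so that HIF activity is set mainly by protein stability and not by the HIF1A message. Stable HIF binds hypoxia response elements and raises genes for glycolysis, pH control, vessel growth and matrix crosslinking, and also EGLN1 and EGLN3, which closes a feedback loop. In the RPE the pathway is best known for VEGFA, the vessel growth factor that the RPE secretes towards the choroid. No oxygen level and no protein was measured here.

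Promoter letters were taken from RefSeq (GRCh38.p14) for 7 of the 10 genes, as the 250 bases before the annotated start, and are shown because the genes are grouped by a regulator with a known core motif. The core of the hypoxia response element was searched as ACGTG or GCGTG on either strand. The 7 genes have 8 windows, since HIF1A has 2 annotated starts. It was found in 6 of the 8 windows, 1 of the 2 of HIF1A among them, and in 43.2% of the 35114 windows of the same 250 bases in the whole table. ACGTG alone was in 18.5% of the windows. The 4 promoters printed belong to CA9 and ADM, which were higher with Nrf2 siRNA, to EGLN3, which was higher too and has no match, and to ANKRD37, which has the most matches and overlapped between Nrf2 siRNA and scramble. Capitals mark matches to the core. The CA9 window is chr9:35673678-35673927 on the plus strand, that of ADM is chr11:10304823-10305072 on the plus strand, that of EGLN3 is chr14:33951075-33951324 on the minus strand, and that of ANKRD37 is chr4:185396591-185396840 on the plus strand.
CA9: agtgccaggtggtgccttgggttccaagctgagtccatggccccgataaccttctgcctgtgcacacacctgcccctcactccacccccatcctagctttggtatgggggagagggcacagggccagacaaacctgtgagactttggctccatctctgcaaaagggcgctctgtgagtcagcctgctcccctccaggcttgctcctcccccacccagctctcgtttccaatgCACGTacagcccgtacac
ADM: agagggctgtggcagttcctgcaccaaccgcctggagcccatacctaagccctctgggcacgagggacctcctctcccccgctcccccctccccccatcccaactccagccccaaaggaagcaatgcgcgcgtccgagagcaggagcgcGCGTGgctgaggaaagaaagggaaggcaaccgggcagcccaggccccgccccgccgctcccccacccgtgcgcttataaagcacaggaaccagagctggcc
EGLN3: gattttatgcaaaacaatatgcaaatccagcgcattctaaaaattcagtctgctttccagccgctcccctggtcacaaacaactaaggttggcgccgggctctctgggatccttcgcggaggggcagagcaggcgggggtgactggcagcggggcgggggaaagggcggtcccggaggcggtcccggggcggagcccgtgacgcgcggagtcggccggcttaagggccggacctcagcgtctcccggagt
ANKRD37: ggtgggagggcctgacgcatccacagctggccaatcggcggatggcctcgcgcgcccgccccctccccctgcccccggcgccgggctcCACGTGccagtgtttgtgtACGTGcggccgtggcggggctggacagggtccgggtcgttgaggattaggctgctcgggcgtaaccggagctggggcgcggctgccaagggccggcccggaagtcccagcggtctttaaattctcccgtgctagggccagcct

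In CA9 the match lay 18 to 14 bases before the start, and in EGLN1 it lay 13 to 9 bases before it. In ADM it lay 101 to 97 bases before the start. ANKRD37 had 3 matches, of which those at 162 to 158 and at 161 to 157 bases overlap as both strands of 1 palindrome, and the other lay at 143 to 139 bases. One HIF1A window held a match 204 to 200 bases and CA12 a match 234 to 230 bases before the start. The core of the antioxidant response element, the motif bound by NRF2, was searched as TGACNNNGC on either strand. It was found in 1 of the 8 windows, the same HIF1A window, at 20 to 12 bases before the start, and in 10.9% of all windows. A match is a run of letters and not a shown binding site.

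**Figure D1:**
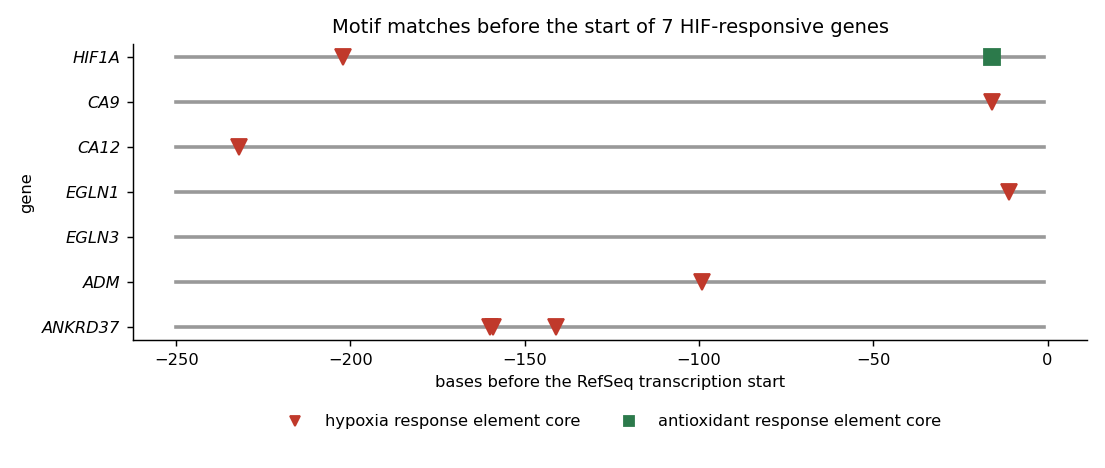
Matches to the hypoxia response element core (triangles) and the antioxidant response element core (square) in the 250 bases before the RefSeq start of 7 genes; the x axis is the distance from the start in bases. CA9 and EGLN1 have a match within 20 bases of the start, ANKRD37 has 3 matches, and EGLN3 has none in this window.

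Levels are TPM, a transcript abundance scaled by length and to a common library total, and the read numbers behind them are unknown. NFE2L2, which encodes NRF2, was at 20.025 ± 7.72 TPM with Nrf2 siRNA and 28.9 ± 6.16 TPM with the double siRNA, against 80.7 ± 7.69 TPM with scramble (SD, n = 3 each; limma adjusted p = 0.00523 and 0.0212). Under the double siRNA NFE2L2 was still called in 2 of 6 leave-outs, without double-siRNA replicate 1 or 3, and its log2 difference stayed between -1.60 and -1.30. With Pink1 siRNA NFE2L2 was at 68.7 ± 4.02 TPM, below scramble without overlap, where 11.2% of all genes were lower without overlap. That log2 difference was -0.23 (95% interval -0.77 to 0.32, limma adjusted p = 0.763). PINK1, a mitochondrial kinase, was at 14.6 ± 3.22 TPM with Pink1 siRNA and 18.7 ± 2.93 TPM with the double siRNA, against 55.8 ± 1.93 TPM with scramble (limma adjusted p = 0.00056 and 0.00301). The labelled cell type was checked with 10 markers of RPE. The keratins KRT8 and KRT18 and the filament VIM, which other cells also express, averaged at least 775, 564 and 4297 TPM in each group, and the pigment cell regulator MITF at least 60.9 TPM. BEST1 and PMEL averaged 4.12 to 6.98 TPM. RLBP1 and SERPINF1 averaged 2.63 TPM or less, and SERPINF1 was listed at 0 in all scramble samples. RPE65, the visual cycle isomerase, averaged 0.165 TPM or less and was listed at 0 in scramble too. TYRP1, an enzyme of melanin synthesis, was the single marker called: it rose to 45.5 ± 6.70 TPM with Pink1 siRNA, 23.2 ± 1.84 TPM with Nrf2 siRNA and 26.6 ± 7.11 TPM with the double siRNA, against 9.915 ± 1.70 TPM with scramble (limma adjusted p = 0.00056, 0.0248 and 0.00856). The TYRP1 calls held in 6, 0 and 5 of 6 leave-outs (the double-siRNA call ended without scramble replicate 2), at log2 estimates of 1.98 to 2.21, 1.05 to 1.27 and 1.121 to 1.47. Its part in the results was not tested. Summed markers of blood, of endothelial cells and of photoreceptors and neural cells reached at most 0.445, 0.675 and 4.43 TPM in any sample, from 1 of 7, 2 of 6 and 3 of 6 genes found in the table. The identifier ENSG00000226958, which has no entry in the name table, took 15.5% of all TPM in replicate 3 of the double siRNA and 41.4% in replicate 1, against 24.9% to 38.6% in the other 10 samples.

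CA9 lay far above scramble in both groups that received Nrf2 siRNA. Its product is a membrane carbonic anhydrase that turns carbon dioxide into bicarbonate and protons outside the cell, and it is a textbook HIF target. CA9 stood at 169, 196 and 201 TPM with Pink1 siRNA, at 254, 442 and 338 TPM with Nrf2 siRNA, at 293, 266 and 491 TPM with the double siRNA, and at 96.9, 127 and 130.5 TPM with scramble. All 3 siRNA groups lay above the scramble samples, the Nrf2-siRNA and double-siRNA samples lay above those of Pink1 siRNA, and Nrf2 siRNA and the double siRNA overlapped. The fitted difference from scramble was 1.51 ± 0.24 with Nrf2 siRNA (log2 of TPM + 1, estimate ± standard error), a 2.86-fold higher level. It was 1.52 ± 0.24 with the double siRNA, or 2.86-fold. The double siRNA and Nrf2 siRNA differed by 0.00 on that scale, with a 95% interval of -0.52 to 0.53. In bulk RNA a change in the number of expressing cells and a change in RNA per cell cannot be told apart.

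CA12, a second membrane carbonic anhydrase that HIF can induce, stayed between 3.99 and 8.65 TPM over all 12 samples. Its group means were 6.87 TPM with Pink1 siRNA, 7.02 TPM with Nrf2 siRNA, 6.12 TPM with the double siRNA and 5.29 TPM with scramble, and neighbours in the order of these means overlapped. The difference from scramble was 0.36 with Nrf2 siRNA (95% interval -0.09 to 0.81), a smaller estimate than that of CA9. Of the other 13 carbonic anhydrase genes looked up, 6 were in the table and 2 were tested. CA11 averaged 7.72 TPM with Nrf2 siRNA and 10.6 TPM with the double siRNA against 10.5 TPM with scramble, and CA13 averaged 1.61 TPM with Nrf2 siRNA and 1.13 TPM with the double siRNA against 2.62 TPM with scramble. With Nrf2 siRNA both lay below scramble without overlap. The highest samples were 8.355 TPM for CA11 and 2.075 TPM for CA13, against lowest scramble samples of 9.615 and 2.11 TPM. With the double siRNA CA13 lay below scramble without overlap too. Limma called neither in any comparison. Only CA13 with the double siRNA against scramble had an unadjusted p under 0.05, where 14.2% of all genes did.

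HIF1A, the oxygen-regulated subunit itself, was not called in any comparison. It stood at 251, 281 and 315 TPM with Pink1 siRNA, at 302, 269.8 and 362 TPM with Nrf2 siRNA, at 253, 327 and 377 TPM with the double siRNA, and at 374, 320.2 and 338 TPM with scramble. It was abundant in every group, with 98.2% of tested genes lower in scramble. The Nrf2-siRNA and double-siRNA samples overlapped those of scramble, with differences of -0.15 (95% interval -0.53 to 0.22) and -0.13 (-0.50 to 0.25). Only the Pink1-siRNA samples lay wholly below scramble.

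EGLN3, the prolyl hydroxylase PHD3 and a strongly hypoxia-induced gene in many cell types, had its high level in 1 group. It stood at 0.905, 0.77 and 1.0 TPM with Pink1 siRNA, at 4.115, 3.715 and 3.385 TPM with Nrf2 siRNA, at 1.32, 1.425 and 1.765 TPM with the double siRNA, and at 1.015, 0.97 and 1.215 TPM with scramble. The 3 Nrf2-siRNA samples lay far above all others, the double-siRNA samples lay just above scramble, and Pink1 siRNA overlapped scramble. The difference from scramble was 1.20 ± 0.22 with Nrf2 siRNA and 0.27 ± 0.22 with the double siRNA; at this low level the first was 1.72 with a pseudocount of 0.1 and 0.53 with one of 5, and the second 0.45 and 0.10. The double siRNA lay below Nrf2 siRNA by a log2 difference of -0.92 ± 0.22, without overlap of the samples. EGLN3 is the least abundant member, with 4.04% of tested genes lower in scramble. Technical replicates of 1 sample differed by up to 0.98 on the log2 scale, and their SD of 0.40 exceeded the SD of 0.11 between the averaged biological samples.

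EGLN1, the prolyl hydroxylase PHD2 and the main oxygen sensor of the pathway, is also a HIF target. It stood at 28.9, 26.6 and 22.5 TPM with Pink1 siRNA, at 23.5, 23.1 and 25.1 TPM with Nrf2 siRNA, at 12.4, 24.3 and 23.1 TPM with the double siRNA, and at 29.4, 27.6 and 24.3 TPM with scramble. No group was wholly apart from scramble, and the low mean of the double siRNA comes from replicate 1, which also held the largest share of ENSG00000226958. The difference of the double siRNA from scramble was -0.48 with all samples, -0.18 without that replicate and -0.59 with ENSG00000226958 removed and the rest rescaled. In the same fits the median over all tested genes was 0.0059, 0.10 and -0.079.

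**Figure D2:**
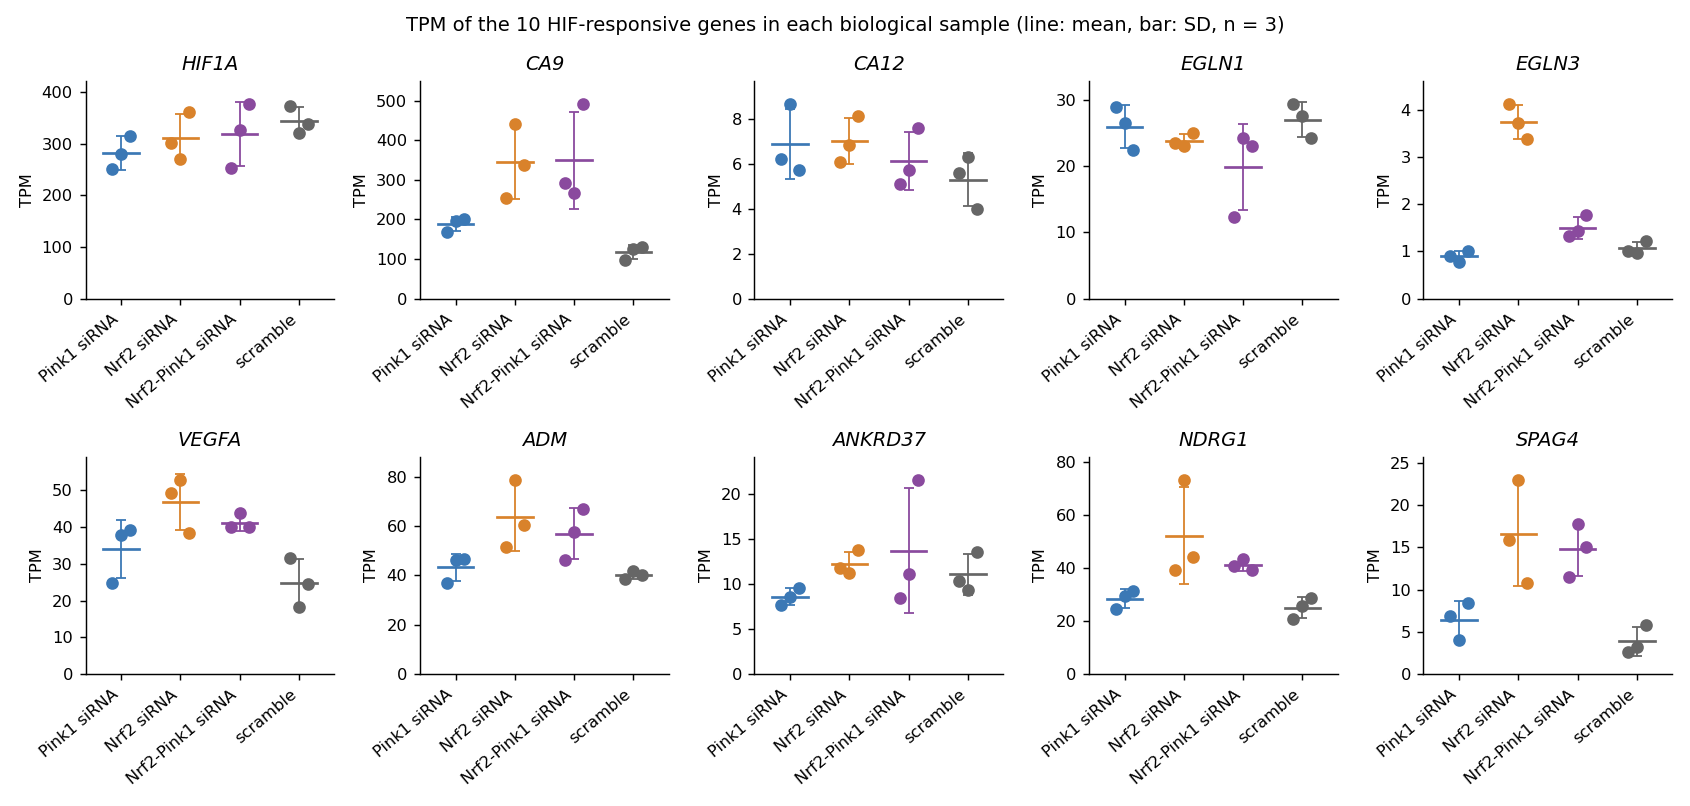
TPM of the 10 genes in each biological sample (points; mean of 2 technical replicates), with the group mean (line) and SD (bar), n = 3 a group; each panel has its own y axis in TPM, starting at 0. CA9, SPAG4 and NDRG1 are higher with Nrf2 siRNA and the double siRNA than with scramble, EGLN3 is high with Nrf2 siRNA alone, and HIF1A and EGLN1 are not higher with any siRNA.

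VEGFA and ADM encode secreted factors. VEGFA stood at 24.9, 37.9 and 39.2 TPM with Pink1 siRNA, at 49.2, 52.8 and 38.3 TPM with Nrf2 siRNA, at 39.9, 43.7 and 39.98 TPM with the double siRNA, and at 31.5, 18.2 and 24.6 TPM with scramble. Every Nrf2-siRNA and double-siRNA sample exceeded every scramble sample, while Pink1 siRNA overlapped both scramble and Nrf2 siRNA. Its fitted differences from scramble were 0.91 ± 0.22 with Nrf2 siRNA and 0.75 ± 0.22 with the double siRNA.

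ADM, the vasodilator peptide adrenomedullin, stood at 37.1, 46.1 and 46.8 TPM with Pink1 siRNA, at 51.7, 78.6 and 60.6 TPM with Nrf2 siRNA, at 46.4, 57.6 and 66.9 TPM with the double siRNA, and at 38.8, 41.7 and 40.3 TPM with scramble. The 2 groups with Nrf2 siRNA again lay above scramble without overlap, by 0.63 ± 0.18 and 0.48 ± 0.18. Of 14 related ligands and receptors, 7 were in the table and 6 were tested. Limma called none in any comparison. Against scramble 1 had an unadjusted p under 0.05 with Nrf2 siRNA and 1 with the double siRNA, where 12.2% and 14.2% of all genes did. VEGFB, the most abundant, averaged 156 TPM with Nrf2 siRNA and 144 TPM with the double siRNA against 127 TPM with scramble, and VEGFC, a lymphatic vessel factor, averaged 20.8 TPM and 22.6 TPM against 18.6 TPM.

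SPAG4, a SUN-domain protein of the nuclear envelope first described in sperm, had the largest fitted difference of the 10 genes with Nrf2 siRNA. It stood at 6.84, 4.07 and 8.43 TPM with Pink1 siRNA, at 15.9, 22.9 and 10.8 TPM with Nrf2 siRNA, at 11.5, 17.8 and 15 TPM with the double siRNA, and at 2.67, 3.21 and 5.87 TPM with scramble. Nrf2 siRNA and the double siRNA overlapped each other and lay above both other groups. The difference from scramble was 1.83 ± 0.31 with Nrf2 siRNA, or 3.55-fold, and 1.72 ± 0.31 with the double siRNA, or 3.28-fold.

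NDRG1, a cytoplasmic protein induced by hypoxia and other stresses, stood at 24.6, 29.4 and 31.5 TPM with Pink1 siRNA, at 39.4, 73.2 and 44.1 TPM with Nrf2 siRNA, at 40.7, 43.6 and 39.4 TPM with the double siRNA, and at 20.8, 25.8 and 28.8 TPM with scramble. It followed the same order as SPAG4, and replicate 2 of Nrf2 siRNA was the highest sample of both genes. Its differences from scramble were 0.98 ± 0.21 with Nrf2 siRNA and 0.70 ± 0.21 with the double siRNA. Of 7 other genes of the NDRG and SUN families, 5 were tested. Limma called none in any comparison, and against scramble 1 had an unadjusted p under 0.05 in each siRNA group. Of all genes 12.2% did with Pink1 siRNA, 12.2% with Nrf2 siRNA and 14.2% with the double siRNA. SUN2 averaged 41.0 TPM with Nrf2 siRNA against 34.6 TPM with scramble, and NDRG4 averaged 29.95 TPM against 42.2 TPM.

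ANKRD37, a small ankyrin-repeat protein and HIF target, stood at 7.69, 8.57 and 9.59 TPM with Pink1 siRNA, at 11.8, 11.2 and 13.8 TPM with Nrf2 siRNA, at 8.495, 11.1 and 21.6 TPM with the double siRNA, and at 10.4, 9.30 and 13.6 TPM with scramble. All 3 siRNA groups overlapped scramble. Replicate 3 of the double siRNA stood out within its group for this gene and was also the highest of its group for CA9, HIF1A, ADM, CA12 and EGLN3. It held the smallest share of ENSG00000226958, at 15.5%. With that identifier removed and the rest rescaled, the double siRNA differed from scramble by 0.10 in ANKRD37 and 1.42 in CA9, against 0.20 and 1.52 as deposited. The median over all tested genes moved as well, from 0.0059 to -0.079. Without replicate 3 of the double siRNA ANKRD37 differed by -0.16, and the median over all tested genes was -0.052.

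**Figure D3:**
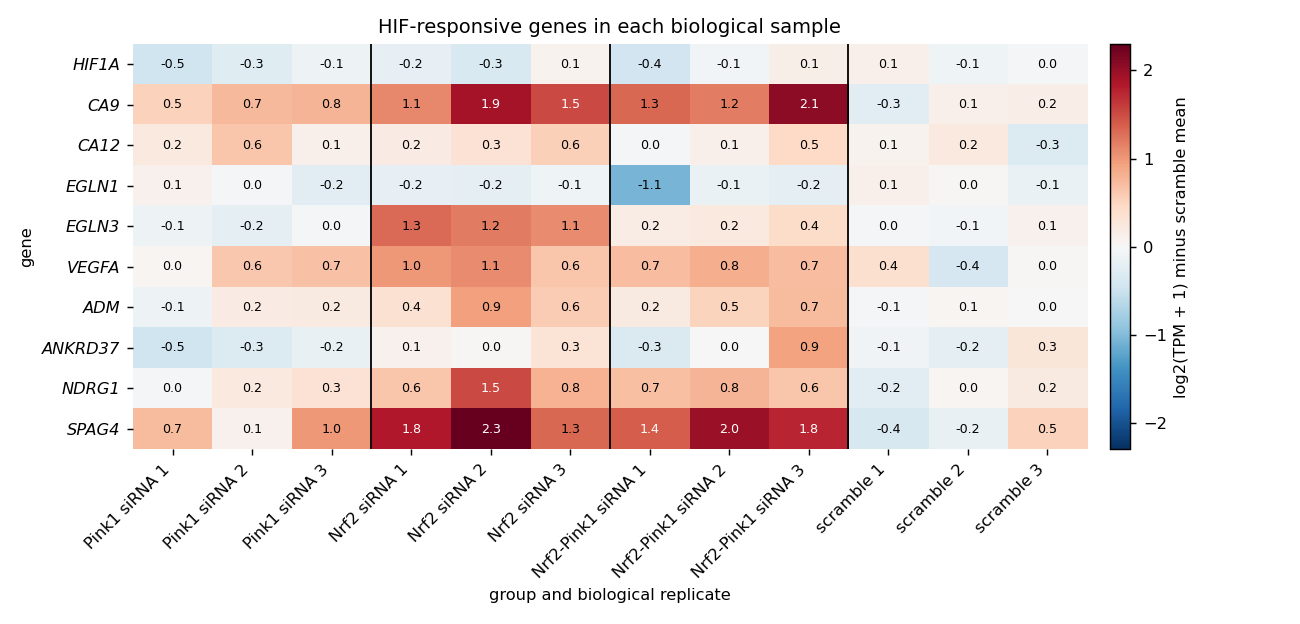
Log2(TPM + 1) of each gene in each biological sample minus the scramble mean of that gene; rows are genes, columns are samples, and the scale runs from blue (below the scramble mean) to red (above). The rows of CA9 and SPAG4 are red in all Nrf2-siRNA and double-siRNA columns, the row of EGLN3 is red in the 3 Nrf2-siRNA columns, and replicate 2 of Nrf2 siRNA has the highest column median, 1.02.

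Across all 10 genes, 6 lay above scramble without overlap with Nrf2 siRNA (CA9, EGLN3, VEGFA, ADM, NDRG1 and SPAG4), where 13.6% of all tested genes did so. The limma call, an adjusted p under 0.05 over all 13810 genes, was reached by CA9, SPAG4 and EGLN3, and 0.217% of all genes were called higher. These shares are printed beside the counts only as the background, since this comparison led to the choice of genes. The median difference was 0.77, against 0.016 over all tested genes. Most of these calls were not kept with 1 sample left out. Over all genes such fits called 6 to 31 in either direction, against 46 with all samples. Leaving out 1 sample at a time, CA9 was called in 1 of 6 cases (without Nrf2-siRNA replicate 1), SPAG4 in 1 (without scramble replicate 3) and EGLN3 in 0. The leave-out estimates stayed between 1.32 and 1.72 for CA9, between 1.57 and 2.10 for SPAG4 and between 1.14 and 1.25 for EGLN3.

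With the double siRNA the same 6 genes lay above scramble without overlap, where 10.2% of all genes did so, and CA9 and SPAG4 were called, where 0.471% of all genes were called higher. EGLN3 was only just apart, with a lowest double-siRNA sample of 1.32 TPM and a highest scramble sample of 1.215 TPM. Its difference was 0.27 (95% interval -0.21 to 0.76). The median difference of the 10 genes was 0.38, against 0.0059 over all tested genes. This comparison shares its scramble samples with that of Nrf2 siRNA. CA9 kept its call in 3 of 6 leave-outs, the 3 in which a double-siRNA sample was left out, and lost it without any 1 scramble replicate, with estimates of 1.25 to 1.69. SPAG4 kept it in 2 (without double-siRNA replicate 1 and without scramble replicate 3), with estimates of 1.53 to 1.98.

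With Pink1 siRNA 0 of the 10 genes were called by limma, where 0.471% of all genes were called in either direction. CA9 alone had an unadjusted limma p under 0.05, where 12.2% of all genes did. CA9 lay above scramble without overlap, by 0.68 ± 0.24 (95% interval 0.15 to 1.21; limma unadjusted p = 0.0154, adjusted p = 0.265), and 13.8% of all genes were higher without overlap. HIF1A lay below scramble without overlap, by -0.29 (95% interval -0.66 to 0.09; limma adjusted p = 0.529), and 11.2% of all genes were lower without overlap. The others ranged from -0.32 for ANKRD37 to 0.61 for SPAG4, whose interval ran from -0.06 to 1.28 (limma adjusted p = 0.462). The median was 0.14, against 0.022 over all tested genes.

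**Figure D4:**
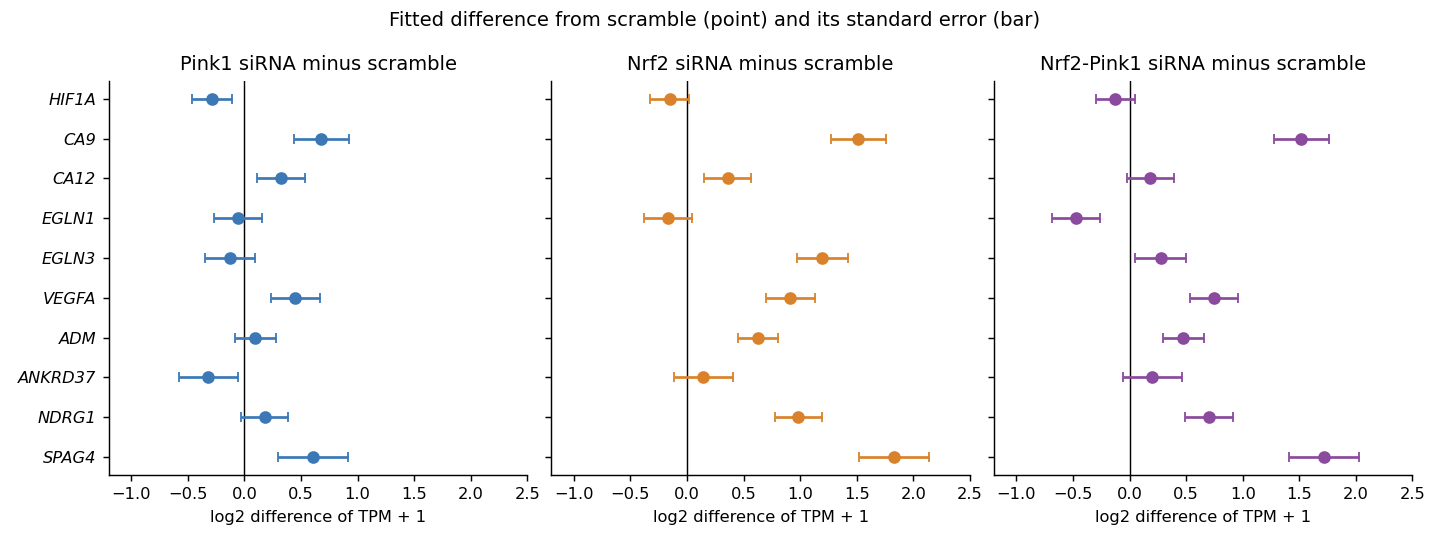
Fitted difference from scramble of each gene (point, log2 of TPM + 1) and its standard error (bar) with Pink1 siRNA (left), Nrf2 siRNA (middle) and the double siRNA (right); the groups have 3 samples each and share the scramble samples. CA9 and SPAG4 lie near 1.5 to 1.8 with Nrf2 siRNA and the double siRNA, and EGLN3 lies at 1.20 in the middle panel and at 0.27 in the right panel.

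Among the siRNA groups, 5 genes were higher without overlap with the double siRNA than with Pink1 siRNA, where 3.18% of all genes were. They were SPAG4 (1.11), CA9 (0.84), NDRG1 (0.52), EGLN3 (0.40) and VEGFA (0.30). Limma called 0 of the 10, and 0.0434% of all genes. With Pink1 siRNA 6 genes were lower without overlap than with Nrf2 siRNA, where 9.42% of all genes were: EGLN3 (-1.32), SPAG4 (-1.22), CA9 (-0.84), NDRG1 (-0.81), ADM (-0.53) and ANKRD37 (-0.46). Of these EGLN3 was called, and 0.608% of all genes were called lower. Leaving out 1 sample at a time ended that call in 5 of 6 cases, all but the one without Nrf2-siRNA replicate 1, at estimates of -1.38 to -1.27. These comparisons reuse the arms that led to the choice of genes, so the counts are a description.

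The double siRNA was set against Nrf2 siRNA to ask whether levels differed where Pink1 siRNA was added. NFE2L2 itself was higher with the double siRNA than with Nrf2 siRNA, by 0.57 (95% interval 0.02 to 1.11). It was not called and the samples overlapped. This comparison and the interaction include that difference, whose part in the values was not tested. EGLN3 was the only gene of the 10 without overlap, lower with the double siRNA as given above, and 5.66% of all genes were lower without overlap. Limma called 0 of the 10, and 0.0145% of all genes. The other 9 genes had differences from -0.31 (EGLN1) to 0.06 (ANKRD37). The interaction asks whether the difference made by Nrf2 siRNA depends on Pink1 siRNA. It was -0.79 ± 0.32 for EGLN3 and -0.68 ± 0.34 for CA9. By limma 0 of the 10 and 0.0% of all genes were called for the interaction. It contains the difference for which genes were chosen as high with Nrf2 siRNA, so these values are a description too. The interaction was above 0 for 2 of the 10 genes, where it was for 46.0% of all genes, with a median of -0.48 against -0.034 over all tested genes.

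Other genes of the pathway were read from lists of known HIF targets. The lists were chosen with earlier results of these data known. Their counts and p are therefore a description and no independent test. Of 24 glycolytic HIF targets, 23 had a difference above 0 with Nrf2 siRNA and 23 with the double siRNA, against 52.0% and 50.8% of all tested genes, and 16 with Pink1 siRNA, against 53.3%. The median difference was 0.38 with Nrf2 siRNA, 0.39 with the double siRNA and 0.10 with Pink1 siRNA. The groups did not overlap in 19 genes with Nrf2 siRNA and 18 with the double siRNA, all higher, where 13.6% and 10.2% of all genes were higher without overlap. PFKFB4, which makes the activator of phosphofructokinase, was the single gene called with Nrf2 siRNA, where 0.217% of all genes were called higher: it rose to 20.5 ± 8.35 TPM with Nrf2 siRNA, against 7.52 ± 0.503 TPM with scramble (limma adjusted p = 0.0469). That call held in 1 of 6 leave-outs, without Nrf2-siRNA replicate 1, at log2 estimates of 0.98 to 1.54. Of the 24, 17 had an unadjusted limma p under 0.05 with Nrf2 siRNA, where 12.2% of all genes did. With the double siRNA 0 were called and 15 of the 24 had such a p, where 14.2% of all genes did. Without double-siRNA replicate 1, 4 were called (ENO1, LDHA, PGK1 and PGM1), and 0 in the other 5 leave-outs. The leave-outs called 19 to 240 of all genes in either direction, against 104 with all samples. With the double siRNA GAPDH averaged 6317 ± 975 TPM against 4250.2 ± 252 TPM with scramble, and LDHA, lactate dehydrogenase A, averaged 2396 ± 893 TPM against 1444 ± 39.9 TPM. With Pink1 siRNA 0 were called and 2 had an unadjusted limma p under 0.05, where 12.2% of all genes did, with GAPDH at 4876 ± 676 TPM and LDHA at 1394 ± 79.4 TPM.

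Of 46 non-glycolytic HIF targets, 44 were in the table and 41 were tested. With Nrf2 siRNA 34 had a difference above 0, where 52.0% of all genes did, with a median of 0.44. The other 7 lay below 0, down to -0.64. In 27 genes the samples lay above scramble without overlap, where 13.6% of all genes did so. TFRC and CXCR4, named here after their values were seen, lay below scramble without overlap. They averaged 41.2 and 6.03 TPM, against 63.6 and 7.83 TPM with scramble. Of the 41, 3 rose, where 0.217% of all genes were called higher. PLOD1, a collagen lysyl hydroxylase, rose to 142 ± 17.1 TPM against 74.6 ± 5.81 TPM with scramble (limma adjusted p = 0.0236). DDIT4, an inhibitor of mTORC1 signalling, rose to 47.0 ± 10.1 TPM against 21.4 ± 1.83 TPM (limma adjusted p = 0.0248). LOX, which crosslinks collagen, rose to 639 ± 67.9 TPM against 347 ± 44.3 TPM (limma adjusted p = 0.0310). The calls of PLOD1 and DDIT4 held without Nrf2-siRNA replicate 1 and ended without any other single sample, at estimates of 0.84 to 1.02 and 0.92 to 1.20 on the log2 scale. That of LOX ended in all 6 leave-outs (0.80 to 0.98).

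With the double siRNA 31 of the 41 had a difference above 0, where 50.8% of all genes did, with a median of 0.26. The other 10 lay below 0, down to -0.46. In 11 genes the samples lay above scramble without overlap, where 10.2% of all genes did so. CXCR4 again lay below scramble without overlap, at a mean of 5.45 TPM. Of the 41, 4 rose, where 0.471% of all genes were called higher. The count was 8 without double-siRNA replicate 1 and 1 in each of the other 5 leave-outs. Over all genes the leave-outs called 19 to 240 in either direction, against 104 with all samples. PLOD1 was at 154 ± 13.5 TPM (limma adjusted p = 0.00856), LOX at 606 ± 82.9 TPM (limma adjusted p = 0.0307) and DDIT4 at 40.8 ± 3.43 TPM (limma adjusted p = 0.0395), beside the same scramble samples. P4HA2, a collagen prolyl hydroxylase, rose to 105 ± 26.5 TPM against 51.5 ± 4.11 TPM with scramble (limma adjusted p = 0.0266). The call of PLOD1 held in 6 of 6 leave-outs, while those of LOX, DDIT4 and P4HA2 held only without double-siRNA replicate 1, with estimates of 0.72 to 0.92, 0.83 to 0.96 and 0.80 to 1.15. With Pink1 siRNA 19 lay above 0, where 53.3% of all genes did, with a median of -0.01. There 0 were called and 6 of the 41 had an unadjusted limma p under 0.05, where 12.2% of all genes did. IGFBP3, a binding protein of insulin-like growth factors, averaged 417 ± 36.1 TPM against 400.4 ± 102 TPM with scramble, and LOX averaged 391.8 ± 23.7 TPM. Between Pink1 siRNA and Nrf2 siRNA, PFKFB4 was called lower with Pink1 siRNA, at 7.04 ± 1.396 TPM against 20.5 ± 8.35 TPM (limma adjusted p = 0.0188). Its scramble mean was 7.52 TPM, near that of Pink1 siRNA. ANKZF1, a factor of ribosome quality control, was called lower too, at 12.3 ± 1.54 TPM with Pink1 siRNA against 24.4 ± 4.81 TPM with Nrf2 siRNA (limma adjusted p = 0.0269). With scramble ANKZF1 averaged 16.5 TPM. Both calls held only without Nrf2-siRNA replicate 1, with leave-out estimates of -1.64 to -1.07 and -1.08 to -0.81.

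**Figure D5:**
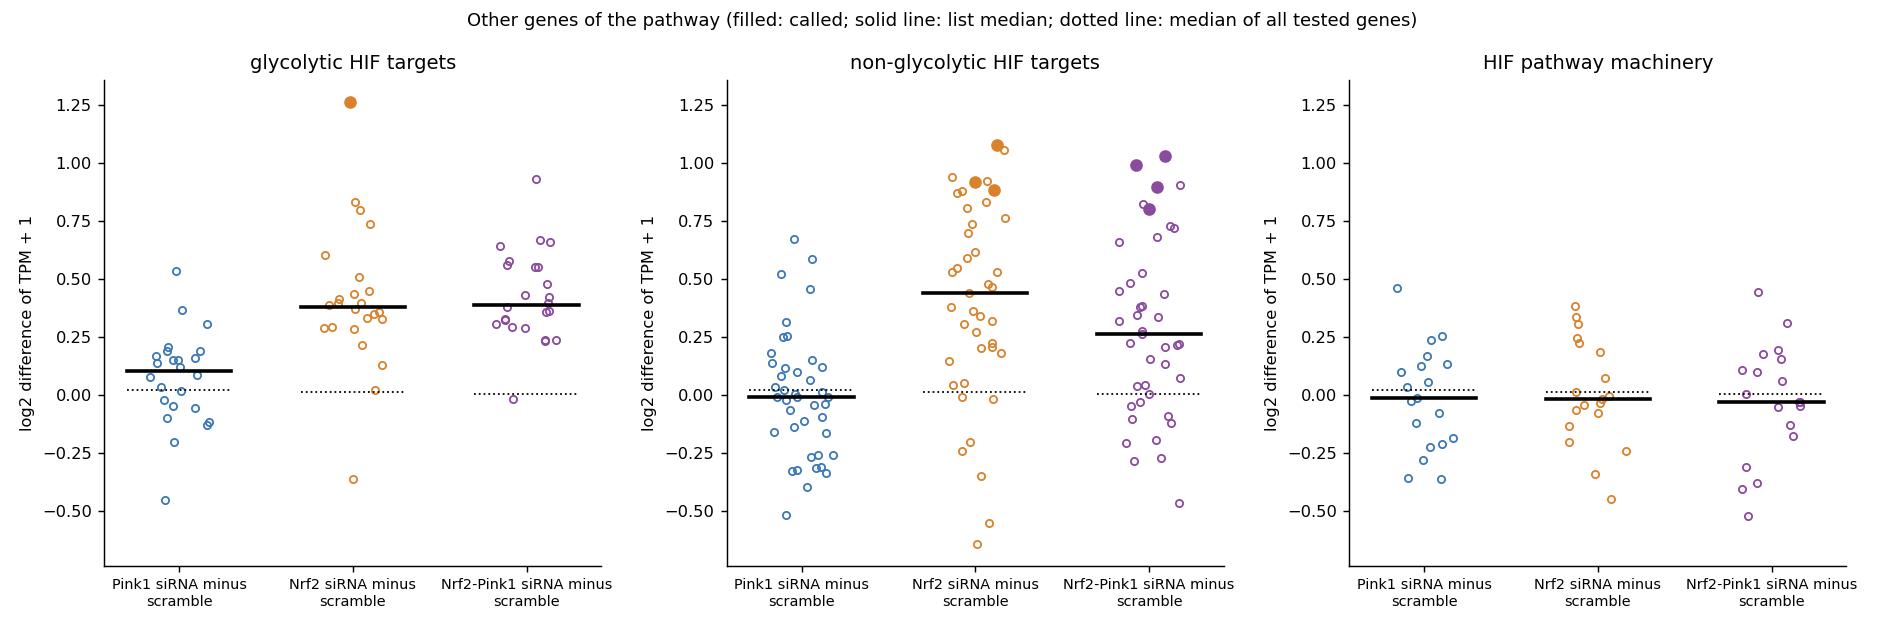
Difference from scramble (log2 of TPM + 1) of each gene in 3 lists of other pathway genes with Pink1 siRNA, Nrf2 siRNA and the double siRNA; filled points are called by limma, the solid line is the list median and the dotted line the median of all tested genes. The glycolytic medians are 0.38 with Nrf2 siRNA and 0.39 with the double siRNA, while those of the pathway machinery stay near 0.

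Of 20 genes of the machinery that senses oxygen and builds or destroys HIF, 19 were tested. By limma 0 were called in any of the 7 comparisons, though with the double siRNA quantile normalization called HSP90AA1 and array weights called OS9, and the list medians lay between -0.05 and -0.01. With Nrf2 siRNA 3 of them had an unadjusted limma p under 0.05, where 12.2% of all genes did. With the double siRNA 2 did and with Pink1 siRNA 1 did, where 14.2% and 12.2% of all genes did. The chaperone HSP90AB1, the most abundant of them, averaged 852 ± 47.7 TPM with Pink1 siRNA, 843 ± 41.8 TPM with Nrf2 siRNA and 942 ± 187 TPM with the double siRNA, against 867 ± 32.8 TPM with scramble. HSP90AA1 averaged 567 ± 26.6 TPM, 489 ± 61.1 TPM and 527 ± 160 TPM in the same siRNA groups, against 662 ± 8.07 TPM with scramble. EPAS1, which encodes the alternative alpha subunit HIF-2 alpha and is named here after its values were seen, averaged 19.9 ± 1.31 TPM, 17.1 ± 1.82 TPM and 18.2 ± 2.75 TPM, against 18.02 ± 0.0284 TPM with scramble.

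Genes whose level tracked CA9 over the 12 biological samples were ranked by Pearson's r among the 9806 genes that averaged 5 TPM or more. The points share groups and scaling, so r is given as a description. The nearest were ALKBH5 (r = 0.96), an RNA demethylase, P4HA2 (0.95), H2BC12 (0.94), ITGB5 (0.94), an integrin subunit, and QSOX1 (0.93), a sulfhydryl oxidase. H2BC12 belongs to a family of near-identical histone genes, so its level is uncertain. Of the other members, ADM ranked 27 (0.90), SPAG4 ranked 51 (0.87), NDRG1 ranked 57 (0.87) and VEGFA ranked 390 (0.73). HIF1A ranked 6390 (-0.10) and EGLN1 ranked 8715 (-0.43). With the group means removed, r with CA9 was 0.81 for ADM, 0.28 for SPAG4, 0.59 for NDRG1 and -0.065 for VEGFA. It was 0.72 to 0.94 for the nearest genes named above.

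For EGLN3 the nearest of 9807 genes were SCHIP1 (r = 0.92), GBP1 (0.91), TRAM2 (0.90), FZD2 (0.90) and MMP2 (0.89). SCHIP1 averaged 3.41 TPM with Pink1 siRNA, 21.4 TPM with Nrf2 siRNA and 4.03 TPM with the double siRNA, against 3.22 TPM with scramble, the same pattern of 1 high group. GBP1 has close paralogs that may share reads with it, so its level is uncertain. By Pearson's r NDRG1 was the nearest other member, at rank 131 (0.75), and CA9 ranked 400 (0.63). By Spearman's rank correlation SPAG4 was nearer than NDRG1 (0.78 against 0.73). With the group means removed, r with EGLN3 was -0.0042 for NDRG1, -0.070 for SCHIP1, 0.64 for SPAG4 and 0.66 for ANKRD37. These values are uncertain, since the technical SD of EGLN3 (0.40) exceeded its SD between averaged samples (0.11).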

How the data were processed

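RNA from ARPE-19 cells was sequenced in 24 libraries. Per the labels' protocols, libraries were stranded, made from mRNA and read from both ends. STAR, RSEM, edgeR, GRCh37 and hg19 are named, without versions or roles, in the submitters' processing notes. The authors deposited TPM for 24053 Ensembl gene identifiers, of which 19325 had a symbol in the name table. TPM holds no read number, so depth, counting intervals and detection limits are unknown.

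Technical replicates were averaged. Nothing says whether biological replicates were separate cultures, so a p measures the spread between these samples. The 13810 genes averaging 1 TPM or more were fitted as log2(TPM + 1) in 1 model of the 4 groups, using R 4.3.3 and limma 3.58.1 (intensity trend in the prior), with two-sided tests and Benjamini-Hochberg adjustment over all genes. A gene is called, or said to rise or fall, at an adjusted p under 0.05. Fold changes are on that scale and understate those of low genes. With 3 samples against 3, a permutation test of 1 gene cannot go below p = 0.1. The fit was tested on simulated data.

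The 10 genes, the 10 lists and the comparisons were chosen with earlier results of these data known. Named from each list were up to 4 called genes with the smallest adjusted p, or the 2 most abundant where none was called, and the 5 genes most like CA9 and EGLN3. Promoter letters and gene starts are those of RefSeq on GRCh38.p14; no coordinates of the build of the files are given. Alternatives were other pseudocounts (0.1 and 5), filters, scalings, a replicate block, array weights, single technical replicates, the compared groups alone, and leaving out each sample.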

Additional observations from a re-analysis of the deposited data

How the results depend on the processing

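The direction of the difference from scramble was kept by CA9, SPAG4, EGLN3, NDRG1, VEGFA and ADM with Nrf2 siRNA and with the double siRNA under all alternatives that tested them. The number of the 10 genes called moved more. With Nrf2 siRNA it was 3, and it was 1 (CA9) when either technical replicate was used by itself or the compared groups only, 6 with array weights, and 0 to 1 leaving out 1 sample at a time; the median of 0.77 was 0.55 with a pseudocount of 5. With the double siRNA it was 2, and it was 1 without a filter, 1 from technical replicate 2 by itself, 0 with the compared groups only, 5 with array weights, and 0 to 2 leaving out 1 sample. With array weights 1 was called with Pink1 siRNA (CA9) and 1 for the double siRNA against Pink1 siRNA (SPAG4), where 0 were called otherwise. Between Pink1 siRNA and Nrf2 siRNA it was 1 (EGLN3), 4 with array weights, 0 with a minimum of 5 TPM, which leaves EGLN3 untested, 0 with each technical replicate alone, and 0 to 1 leaving out 1 sample. The interaction median of -0.48 was -0.23 with array weights. Array weights were estimated gene by gene, because the default estimate did not converge. Over all genes, counts with array weights were 598 against 46 with Nrf2 siRNA, 943 against 104 with the double siRNA and 666 against 65 with Pink1 siRNA. Of the other pathway genes, array weights called 8 glycolytic and 13 non-glycolytic targets with Nrf2 siRNA (against 1 and 3), 13 and 12 with the double siRNA (against 0 and 4) and 1 and 3 with Pink1 siRNA (against 0 and 0); under the other alternatives with all samples the counts were 0 to 3 and 2 to 8, 0 to 4 and 0 to 7, and 0 and 0 to 1. The cause of these shifts was not tested.

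Replicate numbers showed no clear pairing of the samples. Of 18 same-number correlations of deviations, 6 exceeded 0.1 (median 0.035, range -0.161 to 0.280). Of 36 other-number correlations, 9 did (median -0.013, range -0.307 to 0.318). With 3 samples a group this check cannot exclude pairing. With the replicate block 1 of the 10 genes (CA9) was called with Nrf2 siRNA, against 3, and 30 genes in all, against 46; the counts of the 10 were otherwise unmoved by the block.

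Uncalled values near 0 changed sign. For the double siRNA against Nrf2 siRNA, quantile normalization gave -0.13 for HIF1A and -0.14 for CA9, removing ENSG00000226958 gave -0.061, -0.083 and -0.030 for HIF1A, CA9 and ANKRD37, and array weights gave -0.019 for HIF1A, -0.19 for CA9, 0.0046 for VEGFA, -0.12 for ANKRD37 and 0.32 for SPAG4. Technical replicate 1 alone gave -0.045 for CA9 and 0.31 for SPAG4, and technical replicate 2 alone -0.0053 for HIF1A. Array weights gave 0.026 for CA12 with Pink1 siRNA against Nrf2 siRNA. Leaving out 1 sample gave, for the double siRNA against Nrf2 siRNA, -0.10 to 0.18 for HIF1A, -0.27 to 0.20 for CA9, -0.29 to 0.010 for ADM, -0.30 to 0.32 for ANKRD37 and -0.37 to 0.14 for SPAG4. Against scramble it gave -0.26 to 0.031 for HIF1A and -0.16 to 0.47 for ANKRD37 with the double siRNA, -0.14 to 0.037 for EGLN1 with Pink1 siRNA, and -0.086 to 0.11 for PINK1 with Nrf2 siRNA. CA12 ranged from -0.28 to 0.015 for the double siRNA against Pink1 siRNA and from -0.19 to 0.067 for Pink1 siRNA against Nrf2 siRNA; that of EGLN1 in the interaction ranged from -0.41 to 0.045.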
